A study of Mus musculus with 32 samples.

Results

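The transcripts described here are those of 56 genes of the core spliceosome, chosen by symbol: protein subunits of the small nuclear ribonucleoproteins (snRNPs) U1, U2 and U4/U6.U5, and of the Prp19 complex and the factors that act with it. All 56 were among the 34223 genes of the deposited table, and all 56 passed the filter for testing, 10 or more normalized counts in 8 or more of the 32 embryos. They were measured by mRNA sequencing in wild-type mouse embryos, each sequenced singly when it had reached the late 2-cell stage (28 h post-IVF). In 16 embryos (Val_LNA), an antisense oligonucleotide with locked nucleic acid (LNA) bases had been microinjected against tRFValCAC, which derives from a transfer RNA for valine. In the 16 control embryos (Ctrl_LNA), the injected LNA oligonucleotide was a scramble. The injected mix held H3.3-GFP mRNA, a histone tagged with a fluorescent protein, in both groups, and GFP-positive embryos were kept, so control embryos carried the same reporter and were injected too. The question addressed by the design is what inhibition of tRFValCAC does to the embryo's mRNA. Each library is 1 embryo. The labels name neither litters nor days of injection, so the p-values cover only the spread among these embryos, which may be technical in part.

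The spliceosome removes introns from precursor mRNA. It assembles anew on each intron: U1 binds the 5′ splice site, SF1 and U2AF mark the branch site and the 3′ splice site, U2 takes the branch site over, the U4/U6.U5 tri-snRNP joins, and the Prp19 complex with a series of helicases drives the rearrangements that lead to the catalytic steps. In the mouse, the late 2-cell stage is when the embryo's own genome is broadly transcribed while maternal RNA is being cleared.

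Promoter sequence of the genes could be read from RefSeq windows on GRCm38.p6 that run from 250 bases before a transcript's start to 50 bases after it. Such windows were found for 44 of the 56 genes, 51 windows in all. The windows of Sf1 and Cwc22 are printed because these were the genes whose transcripts fell, and that of Snrpg because its transcript had the smallest p among those with a positive difference and because its window holds the ETS letters counted below. The window of Sf1 is at chr19:6363440-6363739 on the plus strand, that of Cwc22 at chr2:77946307-77946606 on the minus strand and that of Snrpg at chr6:86371290-86371589 on the plus strand. All are given 5′ to 3′ along the gene, and capitals mark exact matches, on either strand, to the motifs named after them.
Sf1: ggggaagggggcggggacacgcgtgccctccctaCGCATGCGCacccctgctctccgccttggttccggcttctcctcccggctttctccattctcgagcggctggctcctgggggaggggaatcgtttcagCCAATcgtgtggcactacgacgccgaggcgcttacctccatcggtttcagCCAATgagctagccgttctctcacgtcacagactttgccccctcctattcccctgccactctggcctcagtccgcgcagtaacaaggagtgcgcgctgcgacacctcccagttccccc
Cwc22: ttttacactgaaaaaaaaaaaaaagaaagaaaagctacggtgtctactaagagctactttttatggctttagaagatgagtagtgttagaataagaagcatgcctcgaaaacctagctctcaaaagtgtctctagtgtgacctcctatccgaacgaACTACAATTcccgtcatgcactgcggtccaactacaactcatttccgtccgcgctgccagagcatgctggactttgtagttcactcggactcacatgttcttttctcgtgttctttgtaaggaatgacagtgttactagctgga
Snrpg: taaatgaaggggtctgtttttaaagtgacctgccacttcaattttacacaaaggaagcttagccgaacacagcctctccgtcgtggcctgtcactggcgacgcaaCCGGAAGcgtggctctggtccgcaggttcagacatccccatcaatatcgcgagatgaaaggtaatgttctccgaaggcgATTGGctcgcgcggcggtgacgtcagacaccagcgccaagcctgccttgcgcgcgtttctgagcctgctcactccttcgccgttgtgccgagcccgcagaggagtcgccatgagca

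CCAAT, the CCAAT box, stood at bases 133 to 137 and 183 to 187 of the Sf1 window, both times within the same 12 letters, gtttcagCCAAT, and GCGCATGCG, an NRF1 motif, at bases 35 to 43 on the opposite strand. Of 32851 windows, 4 held the 12 letters on either strand and 1 held them more than once, the window of Sf1. The 12 letters were taken from that window itself, so their repeat in it was fixed in advance and the counts are no test. The Cwc22 window held ACTACAATT, letters of the ZNF143 motif, at bases 157 to 165. These letters were searched after the window had been read, and 0.393% of all windows and 1.96% of the windows of the set (1 of 51) held them. The Snrpg window held CCGGAAG, the core of an ETS factor motif, at bases 106 to 112 and a CCAAT box on the opposite strand at bases 185 to 189.

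Across the set, CCGGAAG was in 20 of 51 windows (39.2%), against 8.86% of all windows and 11.6% of the 21263 windows of protein-coding genes. The 19 genes with it came from every subgroup and included Snrpc and Snrpe, Sf3a1, Sf3a2, Sf3a3, Sf3b2 and Sf3b3, Prpf3, Prpf6 and Snrnp200, and Dhx8 and Dhx16. A CCAAT box was in 24 of 51 windows (47.1%), against 37.4% of all windows. The YY1 letters AAGATGGCG were in 4 (7.84%, against 1.40%), TATAAA, the TATA box, in 2 (3.92%, against 13.6%), GCGCATGCG in 3 (5.88%, against 1.75%) and TAATCC, bound by bicoid-type homeodomain factors, in 5 (9.80%, against 7.06%). All motifs were searched on both strands, none was tested, and a match describes letters only.

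Recovered depth averaged 4392531 reads in Val_LNA, with an SD of 947194, and 4837221 in Ctrl_LNA, with an SD of 686052. The libraries have no molecular identifiers and do not mark strand. Ctrl_LNA 48 stood apart from all others: 7276 genes were detected in it, against 16687 to 20200 in the other 31 embryos, so results that it moved are given with and without it. None of the 12 late 2-cell markers and none of the 11 oocyte markers passed the test, and all of them were detected in both groups. The summed late 2-cell markers lay between 9304 and 39219 in Val_LNA (median 14257) and between 3820 and 33252 in Ctrl_LNA (median 10875). Those of the oocyte lay between 7054 and 39664 in Val_LNA (median 14579) and between 1704 and 25000 in Ctrl_LNA (median 10585). The median log2 fold changes of these lists were 0.90 and 0.91 (0.60 and 0.34 without Ctrl_LNA 48), and their part in the results below was not tested. Of the cumulus and granulosa cell markers, 8 of 10 had a median of 0 in each group, among them Fshr, Foxl2 and Cyp19a1, as had 5 of 6 sperm markers. The cumulus and granulosa list summed to a median of 598 in Val_LNA and 537 in Ctrl_LNA, and without Amhr2 to medians of 39.0 in Val_LNA and 14.8 in Ctrl_LNA. The log2 fold changes below are Val_LNA minus Ctrl_LNA on the log2(normalized count + 1) scale. They are those of transcripts throughout, also where a protein is named, and no protein was measured.

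The transcripts of 2 core spliceosome genes fell in Val_LNA embryos and none rose (limma, Benjamini-Hochberg adjusted p under 0.05 over 15559 genes). The 2 were Sf1, the protein that first recognises the branch site, and Cwc22, which brings the exon junction protein EIF4A3 to the spliceosome. Among all tested genes, 1.31% were called lower and 0.881% higher, so that 2 and 0 of 56 (3.57% and 0%) are counts near the background. Without Ctrl_LNA 48, 4 of the genes fell, Dhx16 and Prpf3 besides Sf1 and Cwc22, and 0 rose, where 2.63% of all genes were called lower and 1.57% higher. On recovered reads without that embryo, DESeq2 called Sf1, Cwc22, Prpf3 and Sf3a1 (2.92% of all genes lower) and edgeR Sf1 and Cwc22 (1.61%). At an unadjusted p under 0.05, 10 of the 56 were lower, against 5.85% of all genes, and 2 were higher, against 8.88%. The groups overlapped for all 56, as for all but 0.0321% of tested genes.

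The set as a whole had a median log2 fold change of -0.12, against 0.26 for all tested genes, and 29 of 56 values (51.8%) were negative, against 35.7% of all genes. Leaving out Ctrl_LNA 48 brought the median of all genes to 0.07 and that of the set to -0.22, with 39 values (69.6%) negative, against 45.8%. The subgroups were spread along this range. The median was lowest for the catalytic-step helicases and factors, at -0.50 (-0.62 without Ctrl_LNA 48), followed by the proteins of the tri-snRNP at -0.29 (-0.36), those of U2 and the branch site at -0.13 (-0.21) and those specific to U1 at -0.12 (-0.28). It lay at 0.07 (-0.02) for the Sm ring, at 0.06 (0.12) for the LSm ring and at 0.23 (0.33) for the Prp19 complex. When each embryo was centred on its own median over genes, the median of all genes moved to -0.19 and every subgroup became negative, from -0.21 for the Prp19 complex to -0.95 for the catalytic-step group, while without Ctrl_LNA 48 the same centring gave -0.09 for the Sm ring, 0.06 for the LSm ring and 0.26 for the Prp19 complex. The sign of the last 2 under this scaling therefore rests on Ctrl_LNA 48. No test of the difference between subgroups was made, and they are described by these medians only.

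**Figure D1:**
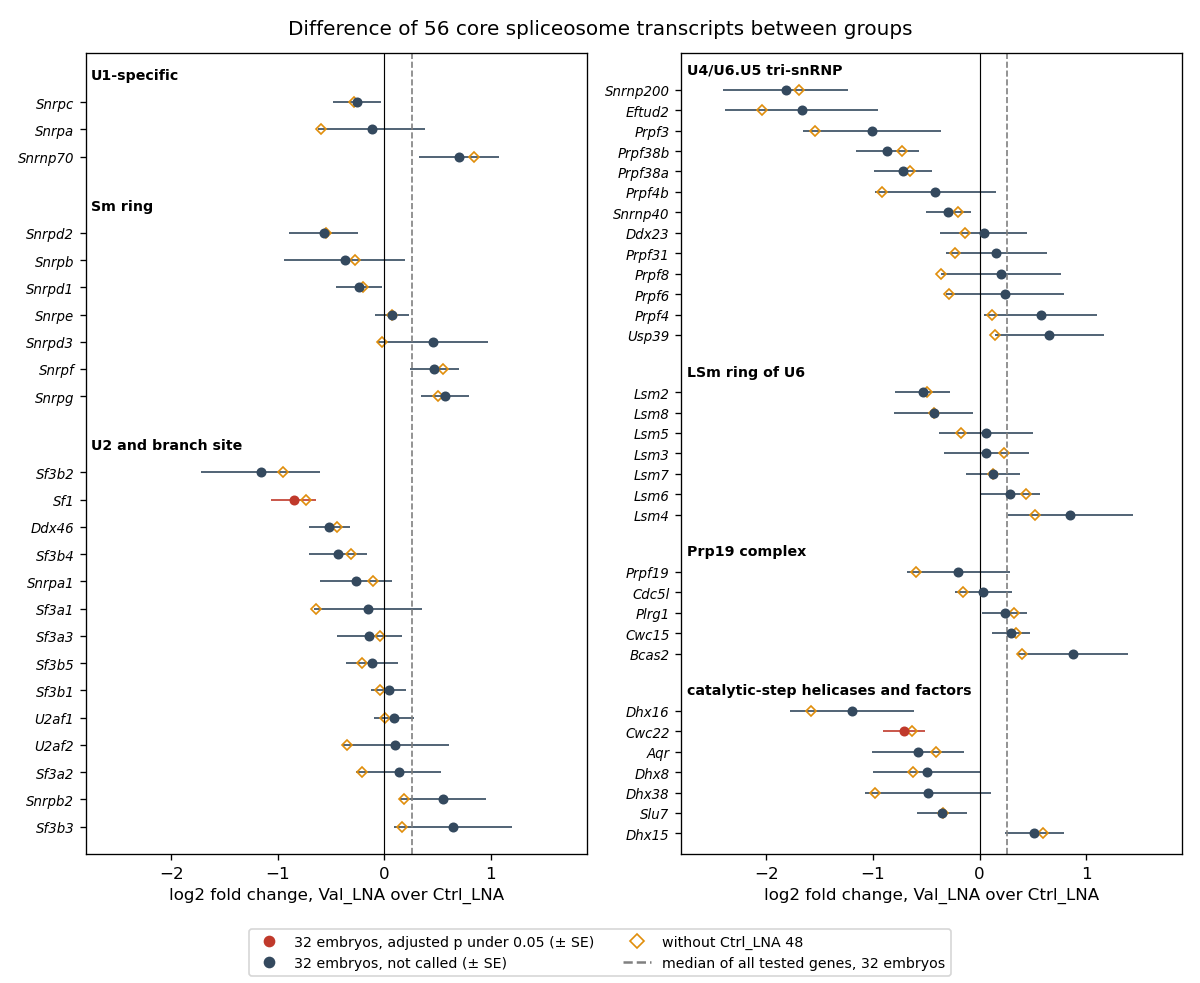
Difference between groups for each of the 56 genes, by subgroup, as log2 fold change of Val_LNA over Ctrl_LNA (circles, with SE bars, 32 embryos) and again without Ctrl_LNA 48 (open diamonds). The dashed line at 0.26 is the median of all tested genes. Sf1 and Cwc22 (red) are the called genes, and the lowest values are those of Snrnp200 (-1.82) and Eftud2 (-1.67).

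Sf1, splicing factor 1, lies at chr19:6363690-6378030 (GRCm38, plus strand, 16 exon blocks). It had normalized counts of 226 at the lowest, 504 at the median and 776 at the highest in Val_LNA embryos, against 330.4, 845 and 2805 in Ctrl_LNA embryos. All 16 Val_LNA embryos lay below the Ctrl_LNA median, and 10 Ctrl_LNA embryos lay above the highest Val_LNA embryo, but the groups overlapped. The log2 fold change was -0.85 ± 0.21 (SE), with an adjusted p of 0.0217 in limma. The highest control value was that of Ctrl_LNA 48. Without it the log2 fold change was -0.74 ± 0.18, with an adjusted p of 0.00973 in limma. An antisense gene, Gm14966, overlaps 1.13% of the exon length of Sf1. As each library is a whole embryo, differences between its cells cannot be seen for this or any other transcript. The counts are divided by size factors, so they are levels relative to the rest of the library and not amounts of RNA per embryo.

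Cwc22 lies at chr2:77881159-77946375 (GRCm38, minus strand, 25 exon blocks). Its normalized counts were 230.4 at the lowest, 409 at the median and 654 at the highest in Val_LNA, against 354, 654 and 1485 in Ctrl_LNA. In 15 of 16 Val_LNA embryos it was below the Ctrl_LNA median, 5 of them were below every control, and 8 controls were above every Val_LNA embryo. The log2 fold change was -0.71 ± 0.20 (SE), with an adjusted p of 0.0432 in limma. Without Ctrl_LNA 48, again the highest control, it was -0.63 ± 0.17, with an adjusted p of 0.0217 in limma. On the same strand, the processed transcript Gm13727 overlaps 2.74% of the exon length of Cwc22. Mouse chromosome 2 also holds 7 annotated genes that are 96.9% identical to Cwc22 over 2514 bases. The 3 of these in the table summed to 4.63 ± 2.69 in Val_LNA and 5.49 ± 3.86 in Ctrl_LNA, against 423 ± 109 in Val_LNA and 721 ± 296 in Ctrl_LNA for Cwc22 itself (± SD over 16 embryos a group).

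On the reads recovered from the normalized counts, both transcripts were also called, and no other of the 56, by edgeR's quasi-likelihood test (1.08% of all genes lower) and by DESeq2 (2.09% lower). The adjusted p of Sf1 was 0.014 in edgeR and 0.00139 in DESeq2, and that of Cwc22 was 0.023 in edgeR and 0.00333 in DESeq2. Without the filter on low values neither was called (0.465% of genes lower). With each embryo centred on its median, the log2 fold changes were -1.30 for Sf1 and -1.16 for Cwc22, neither was called (adjusted p = 0.213 and 0.244 in limma), and the 1 core gene called lower was Dhx16 (1.93% of genes lower). With Ctrl_LNA 48 left out as well, an alternative chosen after seeing the data, centring gave -0.80 for Sf1 and -0.70 for Cwc22, and both were called (adjusted p = 0.00829 and 0.0264 in limma). The others called then were Dhx16, Eftud2 and Prpf3 (2.78% of genes lower). Weighting the embryos by their fit called 5 lower, Sf1, Cwc22, Eftud2, Prpf3 and Sf3a1 (3.62% of genes), and 1 higher, Dhx15 (2.27% of genes).

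**Figure D2:**
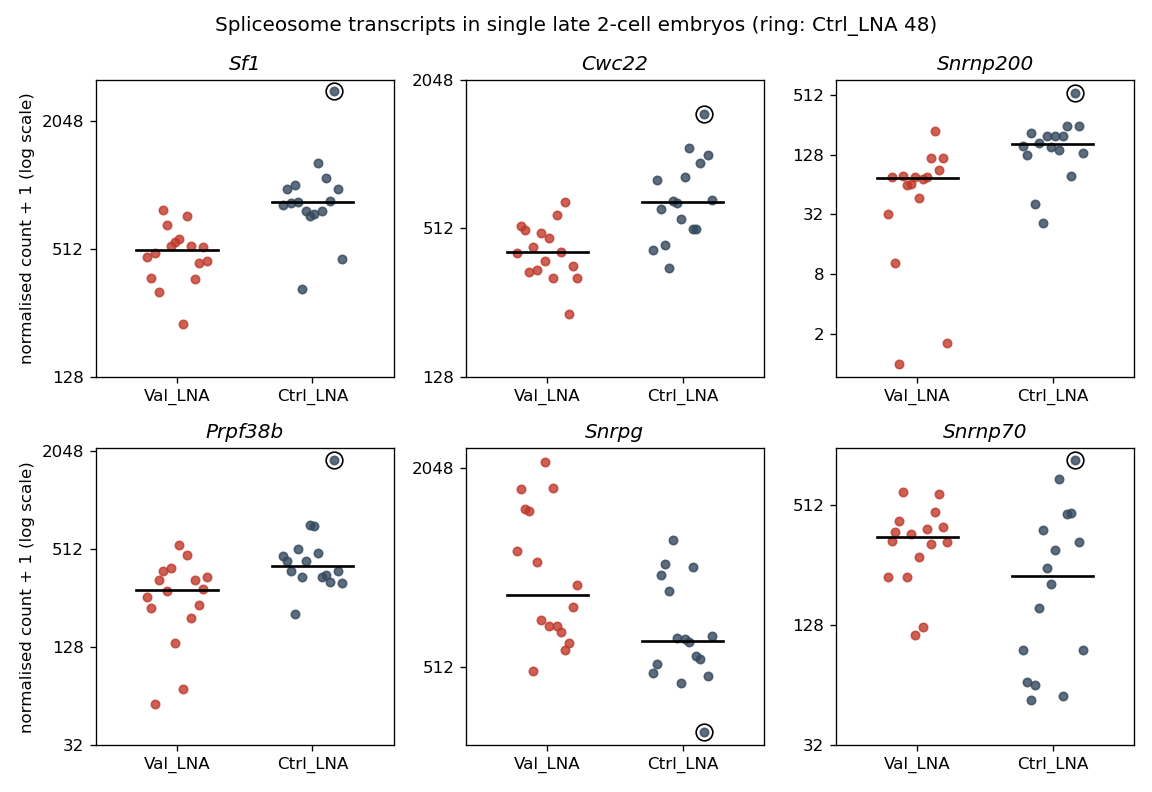
Normalized count + 1 (log scale) of 6 transcripts in each embryo, Val_LNA left and Ctrl_LNA right, with a line at each group's median and a ring around Ctrl_LNA 48. For Sf1 every Val_LNA point lies below the Ctrl_LNA median, and for Snrnp200, Prpf38b, Snrpg and Snrnp70 the groups overlap more widely.

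The transcripts of the 3 proteins specific to U1 differed from one another in sign, and none was called. Snrnp70, the protein that holds the first stem-loop of U1 RNA, had 114, 353 and 599.9 normalized counts at the lowest, median and highest Val_LNA embryo, against 53.0, 226 and 863 in Ctrl_LNA. Although 12 of 16 Val_LNA embryos were above the Ctrl_LNA median, the controls spanned both ends of the range, and the log2 fold change of 0.70 ± 0.38 did not pass (adjusted p = 0.381 in limma). Snrpc, a small U1 protein that contacts the paired 5′ splice site, had 285, 1243 and 1699 in Val_LNA against 661, 1335 and 2069 in Ctrl_LNA (log2 fold change -0.26 ± 0.22, adjusted p = 0.586 in limma). Its 3 lowest embryos were all Val_LNA and its 3 highest all Ctrl_LNA, with the rest intermixed. Snrpa, which binds another stem-loop of U1 RNA, had a log2 fold change of -0.12 that became -0.59 without Ctrl_LNA 48, where it was at 3.15 against 495 or more in all other controls.

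The 7 Sm proteins form the ring that all spliceosomal snRNPs but U6 share. None of the 7 was called, 3 had negative and 4 positive values, and the range from -0.57 for Snrpd2 to 0.57 for Snrpg was narrow. Snrpg, at chr6:86371304-86379328 (plus strand), had 498, 844 and 2147 normalized counts at the lowest, median and highest embryo in Val_LNA, against 325, 615 and 1239.6 in Ctrl_LNA. It was above the Ctrl_LNA median in 13 of 16 Val_LNA embryos and above every control in 5, with the lower parts of both groups overlapping (log2 fold change 0.57 ± 0.22, adjusted p = 0.21 in limma). Snrpf behaved similarly, with 13 of 16 Val_LNA embryos above the Ctrl_LNA median and a log2 fold change of 0.47 ± 0.23, but 65.9% of its exon length is shared with Ccdc38 on the other strand, whose reads cannot be told apart here. Snrpd2 had 19.9, 199 and 336 in Val_LNA against 78.5, 278 and 568 in Ctrl_LNA (log2 fold change -0.57 ± 0.32, adjusted p = 0.408 in limma). For this gene 12 Val_LNA embryos were below the control median and 5 controls were above all Val_LNA embryos. Snrpe was the steadiest of the ring, with a log2 fold change of 0.07 ± 0.16. Snrpd3 had 0.45 with Ctrl_LNA 48, in which it had 0 reads, and -0.02 without it. Snrpb and Snrpd1 had -0.37 ± 0.57 and -0.23 ± 0.22. Snrpb was at 1.25 in 1 Val_LNA embryo, Val_LNA 14, and otherwise reached 942 in Val_LNA and 973 in Ctrl_LNA.

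Of the transcripts of the 14 proteins that mark the branch site or belong to U2, Sf1 was the 1 called. Of the 14, 8 had negative values and 6 positive ones. Of the U2AF dimer, U2af1, which reads the AG at the 3′ splice site, had 0.09 ± 0.19. U2af2, which binds the polypyrimidine tract, had 0.10 ± 0.50 with Ctrl_LNA 48, where it was at 1.05 against 190.3 or more in the other controls, and -0.35 ± 0.26 without it. Sf3b1, the protein that encloses the branch site helix and a frequent target of mutation in blood cancers, had 939.9, 1607 and 2415 normalized counts in Val_LNA against 646, 1625 and 2105 in Ctrl_LNA. The difference of 0.04 ± 0.16 had one of the smallest errors of the set, and 3 Val_LNA embryos were above every control. Other SF3 subunits were less even. Sf3b2, a partner of Sf3b4 at the branch site, had 0, 114 and 476 in Val_LNA against 61.2, 214 and 1906 in Ctrl_LNA, the 1906 being Ctrl_LNA 48 and the next control 417. Its log2 fold change of -1.16 ± 0.56 was not called (adjusted p = 0.327 in limma), with 3 Val_LNA embryos below every control and 5 above the control median.

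Sf3b3, a scaffold of SF3B, had the highest value of this subgroup, with 120.4, 163 and 606 in Val_LNA against 0, 211 and 480.1 in Ctrl_LNA. Its log2 fold change of 0.64 ± 0.55 (adjusted p = 0.582 in limma) was 0.16 without Ctrl_LNA 48, the embryo at 0, and the Val_LNA median was below that of the controls. Sf3a1, a subunit of SF3A, had -0.15 with that embryo and -0.64 without it (adjusted p = 0.0814 in limma), with 14 of 16 Val_LNA embryos below the control median. Ddx46, the helicase that readies U2 for the branch site, was below that median in 13 embryos with a log2 fold change of -0.52 ± 0.19 (adjusted p = 0.184 in limma). The transcripts of the proteins that sit on U2 RNA itself had -0.27 ± 0.34 (Snrpa1) and 0.55 ± 0.41 (Snrpb2). The second had 0.18 ± 0.19 without Ctrl_LNA 48, in which it was at 2.10. Snrpa1 reached 708 in Val_LNA and 2128 in Ctrl_LNA 48, with 824 in the next control. The remaining SF3 subunits, Sf3a2, Sf3a3, Sf3b4 and Sf3b5, ran from -0.43 to 0.13, none called. The 0.13 was that of Sf3a2, which had -0.21 without Ctrl_LNA 48.

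The transcripts of the 13 tri-snRNP proteins held the lowest values of the set. Snrnp200, the BRR2 helicase that unwinds U4 from U6, lies at chr2:127208386-127240451 (plus strand). It had 0, 73.1 and 219 normalized counts at the lowest, median and highest embryo in Val_LNA, against 25.3, 161 and 530.4 in Ctrl_LNA. In 15 of 16 Val_LNA embryos it was below the Ctrl_LNA median, with 3 below every control. The log2 fold change of -1.82 ± 0.59 had the smallest p among those not called (adjusted p = 0.106 in limma, 0.185 in edgeR and 0.0637 in DESeq2). With a pseudocount of 10 instead of 1 the log2 fold change was smaller, at -1.36, and was called (adjusted p = 0.0418 in limma). This was the 1 of 17 alternatives that called Snrnp200. Leaving out Ctrl_LNA 48, its highest control, did not. Eftud2, the U5 GTPase that works beside BRR2, had 0, 52.1 and 273 in Val_LNA against 1.05, 134 and 321 in Ctrl_LNA. The 1.05 was that of Ctrl_LNA 48, and the next control was at 45.6. Eftud2 had the widest spread of all 56 in Val_LNA, with an SD of 2.46 on the log2 scale and 3 embryos under 10% of the group's median. Its log2 fold change was -1.67 ± 0.72 (adjusted p = 0.267 in limma), and it was more negative without Ctrl_LNA 48. On the other strand, Gm26668 overlaps 26.9% of the exon length of Eftud2, and its reads cannot be told apart here. Overlaps on the other strand also cover 18.1% of Prpf31, 16.1% of Sf3a2 and 11.0% of Snrpa.

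Prpf3, which binds the paired U4/U6 RNAs, had 4.85, 146 and 438 normalized counts in Val_LNA against 0, 372 and 676 in Ctrl_LNA, the 0 being Ctrl_LNA 48 and the next control 160.2. The call depended on this control: the log2 fold change was -1.01 ± 0.65 with it (adjusted p = 0.458 in limma) and -1.54 ± 0.42 without it (adjusted p = 0.0259 in limma). Without it DESeq2 also called Prpf3 (adjusted p = 0.0428), and edgeR did not (adjusted p = 0.134). In 15 of 16 Val_LNA embryos Prpf3 was below the Ctrl_LNA median, and 4 controls were above all Val_LNA embryos. Prpf38a and Prpf38b, related proteins of which the first joins with the tri-snRNP, had log2 fold changes of -0.72 ± 0.27 and -0.86 ± 0.30, with 12 and 14 Val_LNA embryos below the control median, and neither was called (adjusted p = 0.187 and 0.134 in limma).

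At the other end, Usp39, a tri-snRNP protein named after the ubiquitin proteases it resembles, had 225, 304 and 509 in Val_LNA against 0, 299.8 and 491 in Ctrl_LNA. The log2 fold change was 0.66 ± 0.51 with all embryos and 0.14 ± 0.17 without Ctrl_LNA 48, the control at 0, and the medians of both groups were nearly equal (adjusted p = 0.547 and 0.716 in limma). The large scaffold Prpf8 and Prpf6, which bridges U5 and U4/U6, changed sign with this embryo, in which both had 0 reads: 0.20 for Prpf8 and 0.24 for Prpf6 with it, and -0.36 for Prpf8 and -0.29 for Prpf6 without it. Prpf4b, a kinase of tri-snRNP proteins, had -0.41 with that embryo and -0.92 without it (adjusted p = 0.0879 in limma). The others, Prpf4, Prpf31, Snrnp40 and Ddx23, lay between -0.29 and 0.57. Without Ctrl_LNA 48, Prpf4 had 0.11 in place of 0.57, Prpf31 -0.23 in place of 0.16 and Ddx23 -0.14 in place of 0.04.

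The LSm ring, proteins Lsm2 to Lsm8, holds the tail of U6 RNA. None of the 7 was called, and 5 had positive values. Lsm2 had 109, 194 and 366 normalized counts at the lowest, median and highest embryo in Val_LNA, against 115, 260.5 and 562 in Ctrl_LNA (log2 fold change -0.53 ± 0.26, adjusted p = 0.333 in limma). In 13 of 16 Val_LNA embryos it was below the control median, and 7 controls were above all Val_LNA embryos. Lsm4 had 11.0, 55.0 and 179.5 in Val_LNA against 0, 43 and 145 in Ctrl_LNA. It was the most variable member in the controls once Ctrl_LNA 48 was left out (SD 1.65 on the log2 scale), it had 0 reads in 2 controls, and its log2 fold change of 0.85 ± 0.59 was not called (adjusted p = 0.49 in limma). Lsm3, Lsm5, Lsm6, Lsm7 and Lsm8 lay between -0.43 and 0.29, and Lsm5 had 0.06 with Ctrl_LNA 48, the 1 control in which it was at 0, and -0.18 without it.

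The Prp19 complex enters as the spliceosome is activated and stays through catalysis. None of its 5 members here was called, and 4 had positive values. Bcas2, a small core subunit, had 96.9, 263 and 642 normalized counts in Val_LNA against 0, 166 and 351 in Ctrl_LNA, with 13 of 16 Val_LNA embryos above the control median and 4 above every control. The log2 fold change was 0.87 ± 0.52 (adjusted p = 0.421 in limma) and 0.40 ± 0.25 without Ctrl_LNA 48, the control at 0. Cwc15, a subunit near the catalytic centre, had 572, 937 and 1674 in Val_LNA against 529, 770.1 and 1259 in Ctrl_LNA (log2 fold change 0.30 ± 0.17, adjusted p = 0.42 in limma). It was above the control median in 11 Val_LNA embryos, 4 of them above every control, and centring the embryos on their medians gave -0.15 with Ctrl_LNA 48 and 0.27 without it. Prpf19, the ubiquitin ligase that gives the complex its name, had 24.0, 124 and 269 in Val_LNA against 1.05, 174 and 269 in Ctrl_LNA, a log2 fold change of -0.20 ± 0.48 (-0.59 ± 0.29 without Ctrl_LNA 48). In 12 Val_LNA embryos it was below the control median, while the highest embryos of both groups were level. Plrg1 had 0.23 ± 0.21 and Cdc5l 0.04 ± 0.27, or -0.16 ± 0.18 without Ctrl_LNA 48.

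The helicases and factors of the catalytic steps had 6 negative values of 7, with Cwc22 called. Dhx16, the PRP2 helicase that starts the first step, had 2.43, 24.5 and 140.2 normalized counts in Val_LNA against 0, 74.6 and 102 in Ctrl_LNA. In 13 Val_LNA embryos it was below the control median, yet 2 were above every control, so the Val_LNA range enclosed that of the other 15 controls. Its log2 fold change was -1.20 ± 0.58 (adjusted p = 0.333 in limma) and, without Ctrl_LNA 48, the control at 0, -1.58 ± 0.46 (adjusted p = 0.0413 in limma). On recovered reads without that control it was smaller and not called, at -0.85 in edgeR (adjusted p = 0.462) and -0.84 in DESeq2 (adjusted p = 0.308). Dhx38, the PRP16 helicase of the second step, was below the control median in 13 Val_LNA embryos as well (-0.49 ± 0.59, and -0.98 ± 0.36 without Ctrl_LNA 48, adjusted p = 0.706 and 0.133 in limma). Dhx8, the PRP22 helicase that releases the mRNA, had -0.50 ± 0.50, Aqr, an intron-binding helicase, -0.58 ± 0.43, and Slu7, a factor of 3′ splice site choice, -0.35 ± 0.24.

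Dhx15, the PRP43 helicase that takes the spliceosome apart, was the exception in sign. It had 125, 414 and 756 normalized counts in Val_LNA against 88.0, 235 and 638 in Ctrl_LNA, and 14 of 16 Val_LNA embryos were above the Ctrl_LNA median. The log2 fold change of 0.51 ± 0.27 was not called (adjusted p = 0.375 in limma), and it was 1.06 between Val_LNA 1 to 8 and Ctrl_LNA 31 to 38 but -0.03 between Val_LNA 13 to 20 and Ctrl_LNA 43 to 50.

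**Figure D3:**
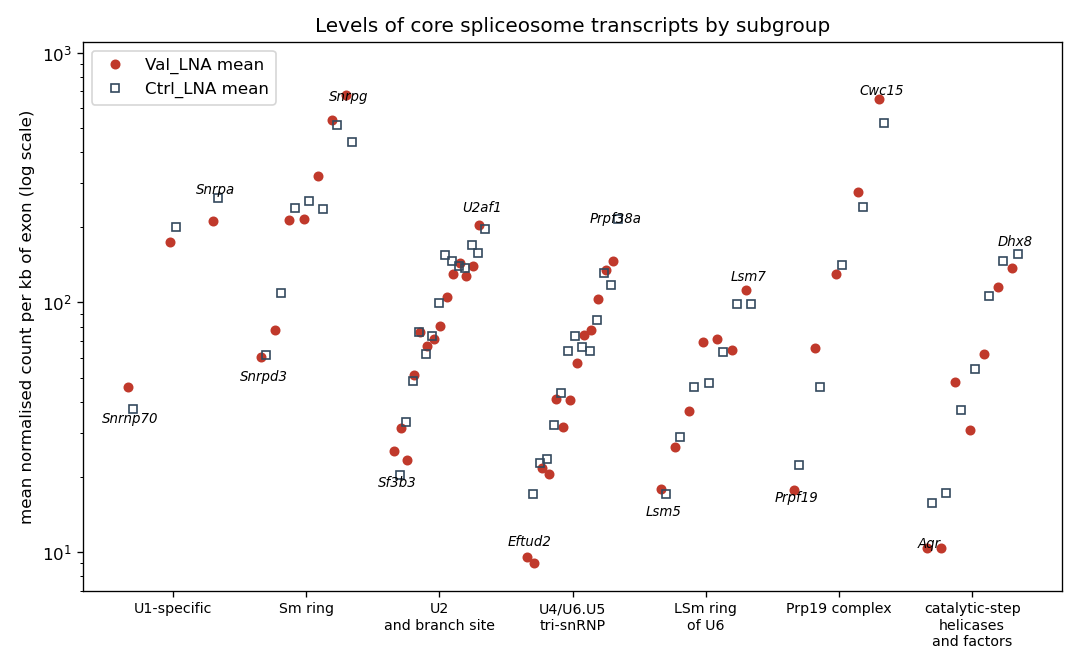
Mean normalized count per kb of exon (log scale) of each gene, by subgroup, in Val_LNA (filled) and Ctrl_LNA (open), ordered within a subgroup by level, with the lowest and the highest gene of each subgroup named. Levels within a subgroup spread 5.68-fold for U1 to 29.4-fold for the Prp19 complex. Exon length is that of all annotated exons of a gene merged.

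Proteins that are built into one particle came from transcripts of different level per kb of annotated exon. Per kb of exon, over all 32 embryos, the lowest mean normalized count was that of Aqr (13) and the highest that of Cwc15 (588), a 45.1-fold range. In the Sm ring, whose members are present in equal number in each snRNP, the level per kb ran 9.13-fold, from 61.2 for Snrpd3 to 559 for Snrpg. In the LSm ring it ran 6.03-fold, from 17.5 for Lsm5 to 106 for Lsm7. Cwc15 had 651 ± 214 per kb in Val_LNA and 525 ± 151 in Ctrl_LNA, and Prpf19, of the same complex, 17.7 ± 10.0 in Val_LNA and 22.3 ± 9.82 in Ctrl_LNA (± SD over 16 embryos a group). Among the transcripts of tri-snRNP proteins, those of the helicase Snrnp200 and its neighbour Eftud2 were the lowest in both groups. They had 9.03 ± 6.82 and 9.52 ± 10.4 per kb in Val_LNA and 22.7 ± 14.6 and 17.2 ± 10.2 in Ctrl_LNA. Ddx23 was next in order at 23.5 per kb in Ctrl_LNA, within the spread of these genes. The levels rest on reads that were PCR amplified and on the exon length of each gene, taken as all its annotated exons merged. That length can exceed the length of the mRNA present. It was 1571 bases for Cwc15, 7278 for Prpf19 and 11805 for Aqr. The part of annotation in these ranges was not tested.

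The spread between embryos of a group, not adjusted for level, was smaller for most of these transcripts than for the median tested gene. The SD of log2(normalized count + 1) across Val_LNA embryos had a median of 0.72 over the 56 genes, from 0.32 for Usp39 to 2.46 for Eftud2. In Ctrl_LNA without embryo 48 the median was 0.57, from 0.26 for Sf3b1 to 1.65 for Lsm4, and with it 1.01. Over all tested genes the medians were 1.25 in Val_LNA and 1.15 in Ctrl_LNA without embryo 48. A value of 0 was rare: 41 of the 56 transcripts were detected in all 32 embryos, 3 were at 0 in some Val_LNA embryo, and 12 were at 0 in some Ctrl_LNA embryo, of which 1, Lsm4, remained without Ctrl_LNA 48.

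A few embryos of both groups were low across many members at once, as the map of all values shows. Averaged over the 56 genes on the log2 scale, each centred on its mean, Val_LNA 14 stood at -0.83 and Val_LNA 3 at -0.69, and Val_LNA 7 stood highest of its group at 0.58. In the control group Ctrl_LNA 48 was at -1.99, and the other 15 controls lay between -0.37 (Ctrl_LNA 34, with Ctrl_LNA 32 next at -0.35) and 0.58. The other 14 Val_LNA embryos lay above the lowest of those 15 controls. For the tri-snRNP alone, the mean was -0.19 ± 0.54 in Val_LNA and 0.19 ± 1.16 in Ctrl_LNA, or 0.47 ± 0.36 without Ctrl_LNA 48 (SD), with 6 Val_LNA embryos below the lowest of those 15 controls. For the Prp19 complex it was 0.12 ± 0.20 in Val_LNA and -0.12 ± 0.77 in Ctrl_LNA, or 0.06 ± 0.20 without Ctrl_LNA 48. The groups overlapped in each of these averages.

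**Figure D4:**
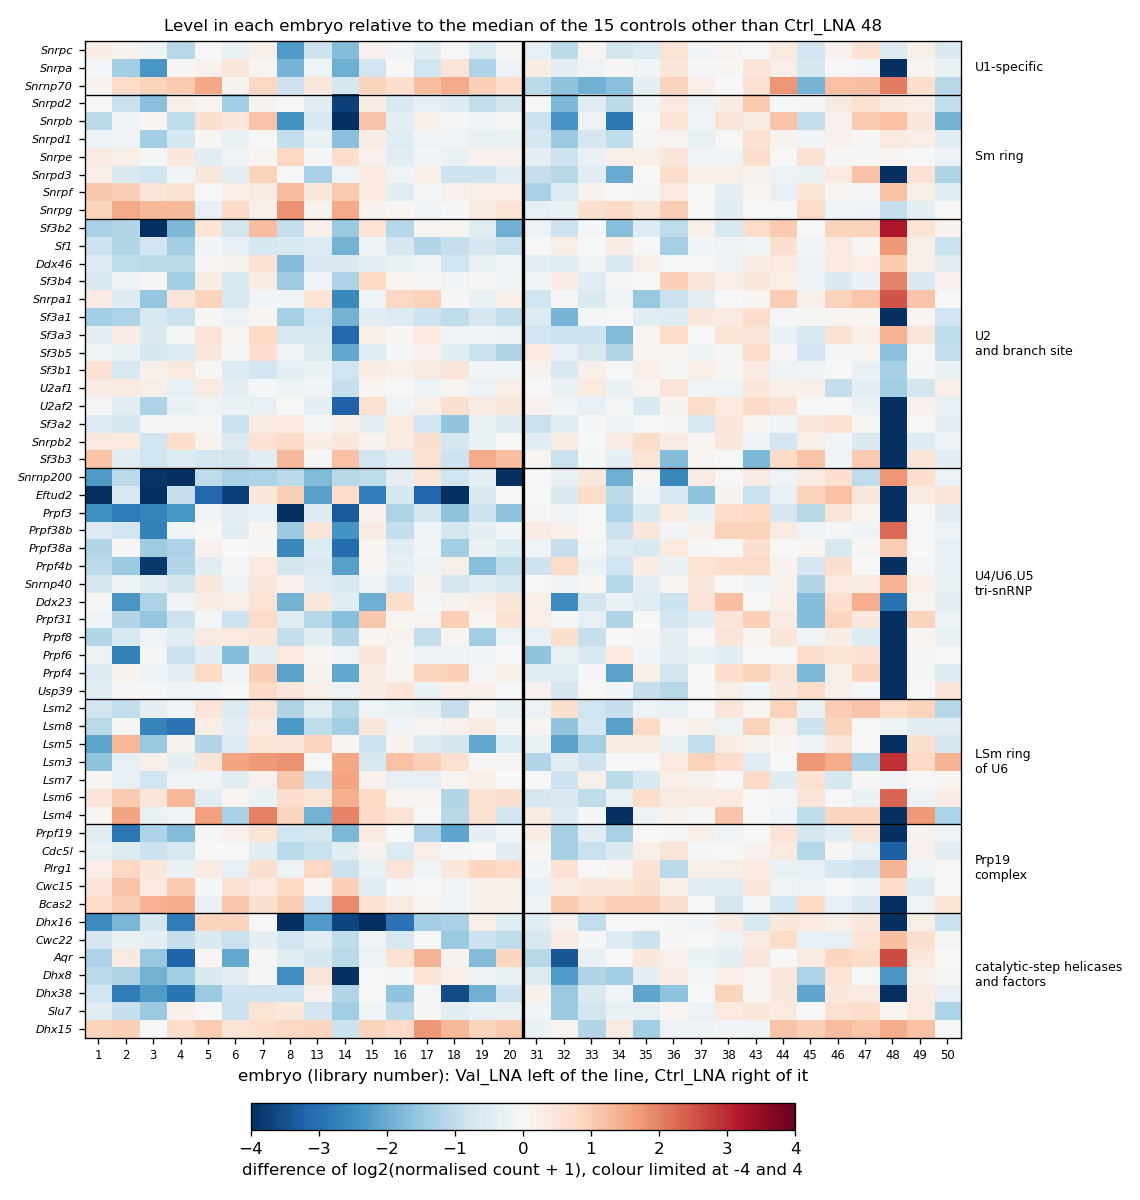
Level of each of the 56 genes (rows, by subgroup) in each embryo (columns, Val_LNA left, Ctrl_LNA right), as the difference of log2(normalized count + 1) from the median of the 15 controls other than Ctrl_LNA 48, with colour limited at -4 and 4. The bluest columns on median over the 56 genes were Val_LNA 14 (-1.10) and Val_LNA 3 (-0.75). Ctrl_LNA 48 (-0.73) alternates between the darkest blue and red. Next were Ctrl_LNA 32 (-0.49), Val_LNA 8 (-0.43), Val_LNA 13 (-0.39), Val_LNA 1 (-0.38), Val_LNA 4 (-0.38), Val_LNA 2 (-0.37) and Ctrl_LNA 34 (-0.35).

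The pattern of Ctrl_LNA 48 was of another kind. In it, 21 of the 56 transcripts were under 10% and 19 over 200% of the median of the other controls, whereas in the other 31 embryos 0 to 3 were under 10% and 0 to 13 over 200% of the median of the other embryos of their own group, Ctrl_LNA 48 left out. In the tri-snRNP 8 of 13 members were under 10%, among them Prpf8, Prpf6, Prpf31, Prpf4 and Prpf3, while Snrnp200 and Prpf38b were at their highest there. In the Prp19 complex 2 of 5 were under 10% and 1 of 5 over 200%. Sf1 and Cwc22, the called genes, were both high in it.

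For 16 of the 56 genes, some reads may not be assigned with certainty, because near-identical copies lie elsewhere in the genome. Copies were counted where an annotated transcript matched at 95% identity or more over at least 200 bases. Some matches are short, such as 247 bases for Prpf19, whose exon length is 7278. The share of reads affected was not examined. The most marked case was Cdc5l, a core protein of the Prp19 complex encoded at chr17:45391884-45433737, which has 10 copies on chromosome 10 that are 97.6% to 97.9% identical to it over 2409 or 2410 bases. Their normalized counts summed to 2069 ± 633 in Val_LNA and 1659 ± 920 in Ctrl_LNA, several times the 429 ± 113 in Val_LNA and 465 ± 194 in Ctrl_LNA assigned to Cdc5l itself (± SD over 16 embryos a group). The highest were Gm9029, at 499.6 in Val_LNA and 437 in Ctrl_LNA, and Gm9046, at 466 in Val_LNA and 303 in Ctrl_LNA. Of the 9 copies that could be tested 0 were called, and their log2 fold changes ran from 0.02 to 0.83. Without Ctrl_LNA 48 they ran from -0.39 (Gm32717) to 0.70 (Gm9045). How the counting divided reads among Cdc5l and these copies is not known, so the level of Cdc5l is uncertain.

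**Figure D5:**
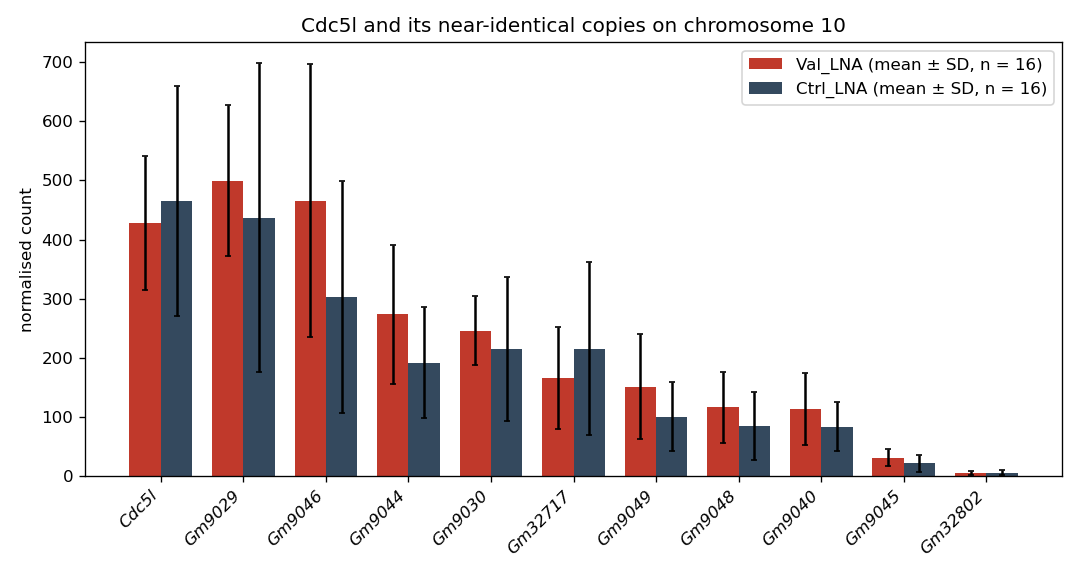
Mean normalized count (± SD, n = 16 per group) of Cdc5l and of its 10 near-identical genes on chromosome 10, Val_LNA left and Ctrl_LNA right in each pair. Gm9029 is at or above the level of Cdc5l in Val_LNA, and the error bars of the groups overlap for every gene shown.

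Among the other members, copies of Snrpg, Snrpe and Lsm7 held the most reads. Snrpg has a processed pseudogene on chromosome 17, Gm8186, identical to it over 231 bases, with mean normalized counts of 191 in Val_LNA and 127 in Ctrl_LNA. Snrpg itself averaged 1068 in Val_LNA and 688 in Ctrl_LNA, and in Ctrl_LNA 48 its 3 copies summed to 403 against 325 for the gene. A copy of Snrpe had 65.6 ± 16.6 in Val_LNA and 65.5 ± 20.4 in Ctrl_LNA. Snrpe itself had 739 ± 196 in Val_LNA and 703 ± 180 in Ctrl_LNA. The 2 copies of Lsm7 summed to a mean of 33.7 in Val_LNA and 29.3 in Ctrl_LNA, where Lsm7 itself averaged 180.1 in Val_LNA and 158 in Ctrl_LNA. None of the tested copies of any member was called, with or without Ctrl_LNA 48.

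Other spliceosome genes, 83 in 6 lists, were set beside the 56. In these, 3 fell (1.31% of all genes) and 1 rose (0.881%) with all embryos, and 5 fell (2.63% of all genes) and 1 rose (1.57%) without Ctrl_LNA 48. With edgeR 2 fell and 0 rose with all embryos, against 1.08% of all genes lower. Cherp, an SR-related protein that associates with U2, fell most: it had 12.4, 78.8 and 183 normalized counts at the lowest, median and highest Val_LNA embryo, against 63.0, 296 and 506 in Ctrl_LNA. All 16 Val_LNA embryos were below the Ctrl_LNA median and 14 controls were above every Val_LNA embryo (log2 fold change -1.99 ± 0.36, adjusted p = 0.000982 in limma). Luc7l3, a U1-associated protein of 5′ splice site choice, had 60.9, 223 and 352 in Val_LNA against 239, 385 and 801 in Ctrl_LNA (log2 fold change -0.94 ± 0.24, adjusted p = 0.0243 in limma), and 8 Val_LNA embryos were below every control. On recovered reads both were called by edgeR and by DESeq2. Cherp was also called without the filter on low values and with each embryo centred on its median, whereas Luc7l3 was not called without the filter (adjusted p = 0.0649 in limma) or with that centring (adjusted p = 0.145 in limma, and 0.0148 without Ctrl_LNA 48).

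Tfip11, which works with DHX15 when the spliceosome is taken apart, had 8.10, 178 and 495 in Val_LNA against 198, 413 and 762 in Ctrl_LNA (log2 fold change -1.49 ± 0.41, adjusted p = 0.0432 in limma), with 9 Val_LNA embryos below every control. It was the 1 called of 20 genes related to Prp19 or the later steps, and it was not called by edgeR (adjusted p = 0.128) or without the filter (adjusted p = 0.0888 in limma). Snrnp25, a protein of the minor U11/U12 snRNP, was the gene that rose, with 171, 479 and 882 in Val_LNA against 25.3, 168 and 612 in Ctrl_LNA (log2 fold change 1.39 ± 0.31, adjusted p = 0.0084 in limma). All 16 Val_LNA embryos were above the Ctrl_LNA median, and 4 were above every control, while the other 8 genes of the minor spliceosome list were not called. Snrnp25 was also called by DESeq2 (adjusted p = 0.00263), but not by edgeR (0.0703 with all embryos and 0.0563 without Ctrl_LNA 48) or with median centring (0.307 in limma, and 0.0161 without Ctrl_LNA 48).

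In 3 lists no gene was called with all embryos. Eif4a3, the exon junction helicase that CWC22 binds, had 390.4, 1271 and 2376 in Val_LNA against 1102, 2329 and 3221 in Ctrl_LNA. Its log2 fold change of -0.71 ± 0.23 was not called (adjusted p = 0.112 in limma), was -0.76 ± 0.23 without Ctrl_LNA 48 (adjusted p = 0.0487 in limma), and 15 of 16 Val_LNA embryos were below the control median. Eif4a3 was called under 2 of 17 alternatives. Without Ctrl_LNA 48 it was not called by edgeR (adjusted p = 0.142), by DESeq2 (adjusted p = 0.0633) or with median centring (adjusted p = 0.0669 in limma). Sugp1, on the list of U1- and U2-associated genes, was the other that was called without Ctrl_LNA 48 and not with all embryos. Txnl4a, a U5 protein, had -0.55 ± 0.28 (adjusted p = 0.343 in limma) and Gemin8, of the SMN complex that loads the Sm ring, 0.93 ± 0.58 (adjusted p = 0.445 in limma), the smallest p of 14 other tri-snRNP genes and of 17 genes of snRNP assembly.

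The library numbers fall into 2 runs per group, Val_LNA 1 to 8 with Ctrl_LNA 31 to 38 and Val_LNA 13 to 20 with Ctrl_LNA 43 to 50, and the labels do not say what the runs are. Within either run none of the 56 was called (0.533% of all genes lower in the first and 0.212% in the second). Sf1 was lower in both, by -0.59 in the first and -1.11 in the second on the log2 scale, as was Cwc22, by -0.36 in the first and -1.06 in the second. Snrnp200 had -1.89 in the first and -1.75 in the second, whereas Prpf3 had -1.99 in the first and -0.03 in the second. The second run holds Ctrl_LNA 48, in which Prpf3 was at 0, and without that embryo the value of Prpf3 there was more negative. The sign was the same in both runs for 33 of 56 genes (58.9%), against 59.5% of all genes, and for 40 (71.4%) without Ctrl_LNA 48, against 61.1%. A test of the difference between runs called none of the 56 (0.0% of all genes), and 2, Snrpa1 and Dhx15, had an unadjusted p under 0.05, against 5.19% of all genes.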

How the data were processed

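Polyadenylated RNA of single embryos was reverse transcribed with template switching, amplified by PCR and tagmented, per the labels' protocols. The submitters' processing notes name DESeq2, SAMtools, STAR and Bowtie2 and build mm10. Which tool did what, in which version, and the annotation: not given in the sources used here. Deposited values are a signal, counts the authors divided by size factors, and the deposited size factors are a score per embryo, per the file headers. Multiplying both gave whole reads for 100% of 1095136 values, within 0.00855 (the decimals' rounding). Totals were 2592925 to 6259870 reads per embryo; intervals are not given because PCR copies are not separate molecules.

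The main test was limma 3.58.1 (R 4.3.3, with trend, robust) on log2 normalized counts with a pseudocount of 1 over 15559 genes, with Benjamini-Hochberg adjustment over all of them, called under 0.05. edgeR 4.0.16 and DESeq2 1.42.0 were run on the recovered reads. Other alternatives were pseudocounts of 0.5 and 10, no filter, a filter of 50 in 16 embryos, TMM scaling, median centring, leaving out Ctrl_LNA 48, runs of library numbers, and array weights. The script was tested on simulated data. Coordinates and exon lengths are from GENCODE M21 (GRCm38), matched by identifier for 99.9% of genes and counted from 1; promoters are RefSeq's.

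The 56 genes, the subgroups and the gene lists were chosen with earlier results of these data known. Named are called genes and, per subgroup, the smallest p, the highest and the lowest value; in other lists, called genes or the smallest p. Genes named beyond that rule were chosen after their values were seen. Python 3.11.15, pandas 2.3.3 and matplotlib 3.10.9 were used for tables and figures.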

Additional observations from a re-analysis of the deposited data

How the results depend on the processing

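Of the 56 genes, 2 were called lower with all embryos. That count was 0 without a filter and within either run of library numbers, 1 with median centring, 4 without Ctrl_LNA 48 and 5 with array weights, which also called 1 higher. The tests, scalings and filters not named gave 2 or 3. Alternatives chosen after seeing the data left out Ctrl_LNA 48 as well: DESeq2 then called 4 lower (Sf3a1 and not Dhx16, unlike limma's 4), edgeR 2, median centring 5 and the second run 0. Sf1 and Cwc22 were each called under 12 of 17 alternatives, and their sign was negative under all 17, with log2 fold changes between -1.30 and -0.59 for Sf1 and between -1.16 and -0.36 for Cwc22. The adjusted p ranged between 0.000827 and 0.358 for Sf1 and between 0.00295 and 0.587 for Cwc22.

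Over all genes, 204 were called lower and 137 higher. Lower calls numbered 325 with DESeq2, 409 without Ctrl_LNA 48, 83 and 33 within the first and second run, 564 with array weights, and, without Ctrl_LNA 48, 401 with DESeq2, 433 with median centring and 124 in the second run. Higher calls numbered 29 with edgeR, 87 without a filter, 91 with the stricter filter, 61 with median centring, 245 without Ctrl_LNA 48, 2 in the second run, 353 with array weights, and, without Ctrl_LNA 48, 85 with edgeR, 268 with DESeq2 and 7 in the second run. Higher calls were 40.2% of all calls in the main setting and 16.9% with median centring. The median of the Sm ring was -0.46 in the second run without Ctrl_LNA 48. The causes of these shifts were not tested. Lsm4 did not pass the stricter filter. No paired analysis was possible because the groups share no replicate numbers. Precision is limited by 16 embryos a group and by transcripts near 0 in single embryos, such as Eftud2, Snrnp200 and Dhx16.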
